A study of Mus musculus with 6 samples.

Results

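The Il10 cytokine cluster was described here as 6 neighbouring genes of mouse chromosome 1, Il10, Il19, Il20, Il24, Mapkapk2 and Fcmr, together with every CpG cytosine measured between bases 130850000 and 131160000 (build GRCm38). Of the 1457048 CpG cytosines covered by at least 10 reads in all 6 libraries of the study, 321 lay in this region of 310 kb. The region was selected on the methylation difference between the genotypes in the 1 kb tile upstream of Il10 (131010001 to 131011000), so the differences between genotypes given for the cluster are a description and carry no test of their own.

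DNA methylation was measured by enhanced reduced representation bisulfite sequencing (ERRBS), which reads cytosines in restriction fragments rich in CpG; bisulfite turns unmethylated cytosine into T in the reads, whereas 5-methylcytosine and 5-hydroxymethylcytosine both remain C. The groups were 3 libraries of naive B cells from spleens of Tet2 knockout mice (KO 1, KO 2 and KO 3) and 3 libraries of naive B cells from spleens of wild-type mice (WT 1, WT 2 and WT 3), all of the strain C57BL/6. The enzyme TET2 oxidises 5-methylcytosine and thereby helps to remove DNA methylation. The labels give neither the design of the knockout allele, nor the age of the mice, nor whether the libraries of a genotype came from different mice, so test results measure the spread between libraries, part of which may be technical; the design text names germinal centre B cells, whereas all 6 sample labels name naive B cells.

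Interleukin 10, encoded by Il10, is a secreted cytokine that restrains inflammation and is made by many leukocytes, among them subsets of B cells. Il19, Il20 and Il24 encode cytokines of the same family that act through the IL-20 receptors, mainly on epithelial cells. Mapkapk2 encodes a kinase activated by p38 that controls the stability and translation of cytokine mRNAs, and Fcmr encodes a receptor for the Fc part of IgM found on B cells. Conserved non-coding elements upstream of Il10 are known to regulate the gene in mouse T cells and macrophages; none of them was matched to the DNA measured here.

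Each library held between 1551481 and 1626375 cytosines, covered by a median of 92 to 110 reads, and within the cluster the median coverage was 96 to 115 reads. In Tet2 itself (gene 214133, chromosome 3, 133463677 to 133545136), 6 cytosines from 133486189 to 133486297 had 28 to 71 reads in each WT library and fewer than 10 in every KO library, which sets the KO libraries apart as their labels do. As a check of the cell type, gene-end windows of 6 of 8 B cell marker genes were measured, with a median methylation of 1.51% in KO and 1.02% in WT; those of Cd79b, Ebf1 and Pax5 included a window below 10%. Windows of 3 of 8 T cell genes had medians of 94.2% in KO and 88.8% in WT (Cd4 held a window below 10%), the 1 myeloid gene measured, Elane, stood at 92.8% in KO and 93.7% in WT, Tbx21, the 1 measured of 4 NK cell genes, had a median of 9.72% in KO and 5.03% in WT, and 4 of 4 plasma cell genes had medians of 2.76% in KO and 3.20% in WT. These are methylation levels and give no expression of the markers.

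The measured cytosines did not cover the 6 genes alike. They fell into 28 stretches separated by more than 500 bases. Mapkapk2 held 111 of the cytosines, Fcmr 39, Il10 4, Il19 3 and Il20 3, and Il24 (gene 93672, 130882074 to 130887411) held none, the nearest lying 3.51 kb from its lower end. The promoters of these genes also differed in their CpG content. Of the 4 genes of the cluster with a RefSeq promoter (300 bases each, GRCm38.p6), Mapkapk2 had 18 CpGs, Fcmr 5, Il20 4 and Il19 1, against a median of 7 over 32851 promoters. ERRBS libraries are commonly cut with MspI at the motif CCGG, which reads the same on both strands, although the enzyme is not given in the labels; CCGG occurred 3 times in the Mapkapk2 promoter, 1 time in that of Il20 and in neither of those of Fcmr and Il19, and 52.8% of all promoters held it. The parts of the promoters of Mapkapk2 and Il20 that lie upstream of the start are shown because the first contains measured cytosines and the second, of a cytokine gene with measured cytosines close by, contains none. Capitals mark CpG dinucleotides, and both sequences run 5′ to 3′ on the minus strand.
Mapkapk2, chr1:131097872-131098093: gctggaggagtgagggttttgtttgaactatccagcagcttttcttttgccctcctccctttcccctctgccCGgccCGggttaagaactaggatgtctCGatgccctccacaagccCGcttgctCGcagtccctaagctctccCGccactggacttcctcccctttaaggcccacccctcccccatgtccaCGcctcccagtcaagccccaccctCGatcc
Il20, chr1:130911297-130911546: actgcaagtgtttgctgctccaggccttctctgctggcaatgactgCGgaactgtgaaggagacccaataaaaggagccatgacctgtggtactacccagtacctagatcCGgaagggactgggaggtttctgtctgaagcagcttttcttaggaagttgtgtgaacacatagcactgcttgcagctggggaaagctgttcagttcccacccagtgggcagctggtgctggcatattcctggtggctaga

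Methylation in the cluster was mostly either near 0% or near 100%. By the mean of the 6 libraries, 193 of the 321 cytosines lay below 10%, 91 at 90% or above, 17 at 70 to 90%, 7 at 10 to 30% and 13 at 30 to 70%. Nearly all low cytosines lay at the upper ends of Mapkapk2 and its neighbour Dyrk3, at the lower end of Eif2d and in a stretch inside Fcmr. The DNA around Il19, Il20 and Il10 and the interiors of Mapkapk2 and Dyrk3 held most of the high ones. Of the 13 cytosines at intermediate level, 4 formed the stretch upstream of Il10, the only stretch of the cluster in which all measured cytosines differed by 10 points or more.

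**Figure D1:**
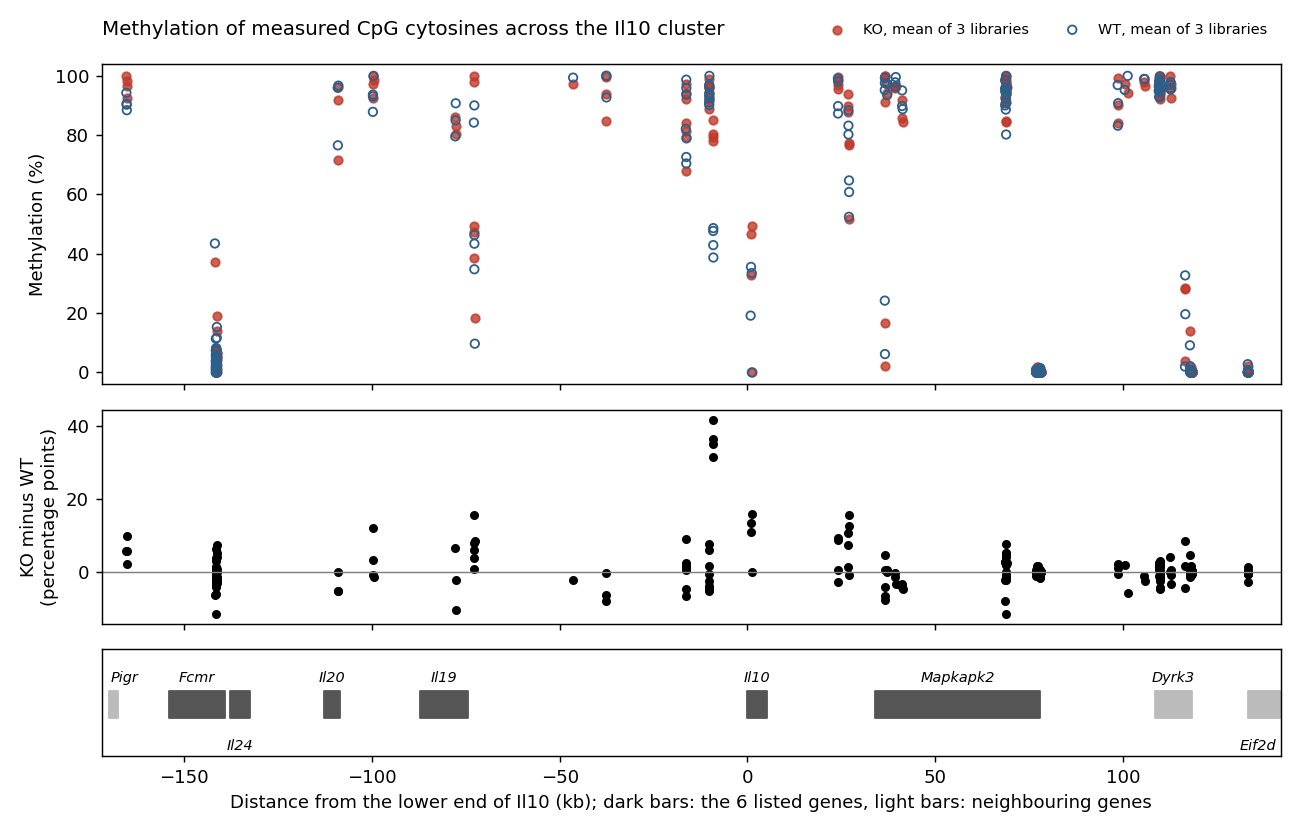
Methylation (%) of the 321 cytosines as the mean of 3 KO libraries (filled) and of 3 WT libraries (open), the difference KO minus WT (percentage points) and the protein-coding genes, against distance from the lower end of Il10 in kb. The 4 cytosines 9.1 kb below Il10 stand 31.7 to 41.8 points apart, and all other cytosines lie between -11.4 and 15.8 points.

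The stretch upstream of Il10 was higher in KO than in WT. It consists of 4 plus-strand cytosines at bases 131010736, 131010748, 131010751 and 131010774, the last of them 9.07 kb from the lower end of Il10 (gene 16153, 131019845 to 131024970), where transcription of this gene is known to start. Pooled over the 4 cytosines, methylation was 76.8%, 71.8% and 93.7% in KO 1, KO 2 and KO 3, and 42.9%, 49.2% and 41.5% in WT 1, WT 2 and WT 3. Each KO library was higher than each WT library. The means were 80.8% ± 11.5 in KO and 44.5% ± 4.09 in WT (SD, n = 3 each), and the difference of the pooled reads was 34.1 points. Among the 108943 tiles of 1 kb tested in the genome, 3 had a larger gain in KO. Larger losses in KO were not counted.

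The same order of the genotypes held at each of the 4 cytosines. At 131010736 the KO libraries had 76.5%, 67.4% and 94.2% and the WT libraries 43.5%, 54.1% and 45.5%. At 131010748 the values were 71.9%, 71.9% and 90.4% in KO and 45.9%, 51.7% and 31.2% in WT. At 131010751 they were 86.8%, 72.7% and 96.1% in KO and 43.5%, 49.2% and 53.2% in WT. The widest separation was at 131010774, the cytosine nearest to Il10, with 72.1%, 75.3% and 94.2% in KO and 38.3%, 41.9% and 36.0% in WT. KO 3 was the highest library at each cytosine, while no WT library was the lowest or the highest at all 4.

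The 4 cytosines lie within 39 bases and had nearly the same number of reads in each library, 135 to 136 in KO 1, 88 to 89 in KO 2, 51 to 52 in KO 3, 60 to 62 in WT 1, 58 to 62 in WT 2 and 75 to 77 in WT 3, so they share reads and are not 4 independent measurements. The highest and the lowest coverage were both in KO libraries. The 95% Wilson intervals of some KO and WT libraries overlapped at 3 of the 4 cytosines. At 131010736 this held for KO 2 (57.1 to 76.3%) and WT 2 (41.7 to 66.0%). At 131010748 the intervals of KO 1 (63.7 to 78.8%) and KO 2 (61.8 to 80.2%) overlapped that of WT 2 (39.2 to 64.1%), and at 131010751 that of KO 2 (62.6 to 80.9%) overlapped that of WT 3 (42.2 to 64.0%). These intervals cover counting error only and treat each read as independent, so PCR copies of the same molecule would make them too narrow. The quasi-binomial test over all tiles called this tile in the genome-wide fit, a call that carries no test since the region was selected on it. The tile was left uncalled without KO 1, without WT 1 and without WT 3. It was also uncalled in edgeR, in limma with each cytosine weighted equally, without moderation of the overdispersion and with either of 2 other priors for it.

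**Figure D2:**
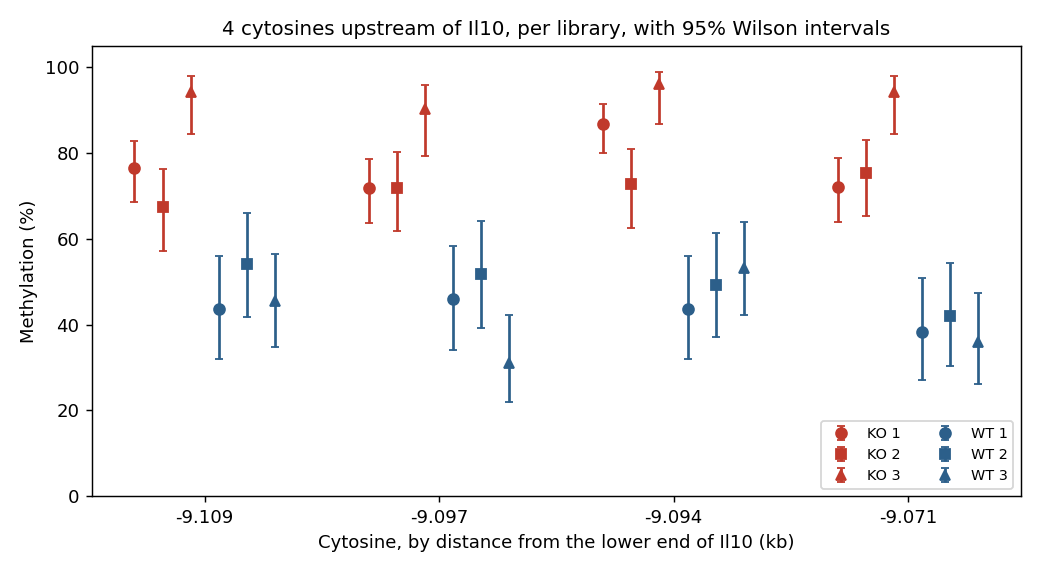
Methylation (%) of the 4 cytosines upstream of Il10 in each KO and WT library, with 95% Wilson intervals for counting error, ordered by distance from the lower end of Il10 in kb. At each cytosine the 3 KO libraries stand above the 3 WT libraries, and intervals of KO and WT libraries overlap at 131010736, 131010748 and 131010751.

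The difference was not seen at the nearest cytosines measured in both genotypes. The minus-strand cytosine at 131010914, in the same tile and measured in 5 libraries, had 100%, 100% and 98.2% in the KO libraries, and 100% and 98.2% in WT 2 and WT 3. On the other side, the 8 cytosines from 131009657 to 131009734 had 94.8%, 93.3% and 94.9% in KO and 92.3%, 94.3% and 96.2% in WT. The genotypes overlapped there and the levels were close to full methylation. The 7 cytosines from 131003450 to 131003615 also overlapped, at 88.1%, 81.6% and 87.8% in KO and 83.3%, 88.8% and 84.0% in WT. All these WT levels were too high for a gain as large as that of the upstream stretch to appear. They therefore cannot show where the difference ends. WT 3 alone had 12 reads on the minus strand at 131010687, 131010715 and 131010737, with 33.3%, 33.3% and 0% methylation; 0 of 12 reads allows a level of up to 25%.

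Il10 itself was sampled at 4 cytosines between 131020702 and 131021034, 0.857 to 1.19 kb inside the lower end of the gene, at intermediate methylation. Pooled, they had 46.1%, 30.9% and 35.2% in KO and 13.2%, 33.0% and 30.04% in WT. The genotypes overlapped, and WT 1 stood below the other 5 libraries. At 131020702 the KO libraries had 36.1%, 33.1% and 28.9% and the WT libraries 2.70%, 21.4% and 33.3%. At 131020796 the values were 59.1%, 34.9% and 45.8% in KO and 27.3%, 44.3% and 35.1% in WT. At 131021000, on 12 to 40 reads, they were 41.7%, 42.1% and 64.3% in KO and 22.2%, 33.3% and 45.0% in WT. The cytosine at 131021034 had 0% in all 6 libraries, which with 12 to 40 reads allows levels up to 25% in KO 1 and up to 7.5% in WT 3. Means over the 4 cytosines were 37.4% ± 7.82 in KO and 25.4% ± 10.7 in WT (SD of pooled values, n = 3 each), a difference smaller than the range within WT.

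Upstream of the start of Il10, just over 1 kb from it, 3 minus-strand cytosines were measured in 5 libraries, each lacking WT 2, on 14 to 29 reads. At 131018749 methylation was 66.7%, 62.1% and 47.1% in KO, against 0% (up to 21.4% allowed by 14 reads) and 40% in WT 1 and WT 3. At 131018763 it was 70.6%, 82.1% and 94.1% in KO, against 64.3% and 70% in WT. At 131018787 the genotypes overlapped, with 82.4%, 82.8% and 72.2% in KO and 50% and 95% in WT. As WT 2 had fewer than 10 reads there, these cytosines entered no fit.

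**Figure D3:**
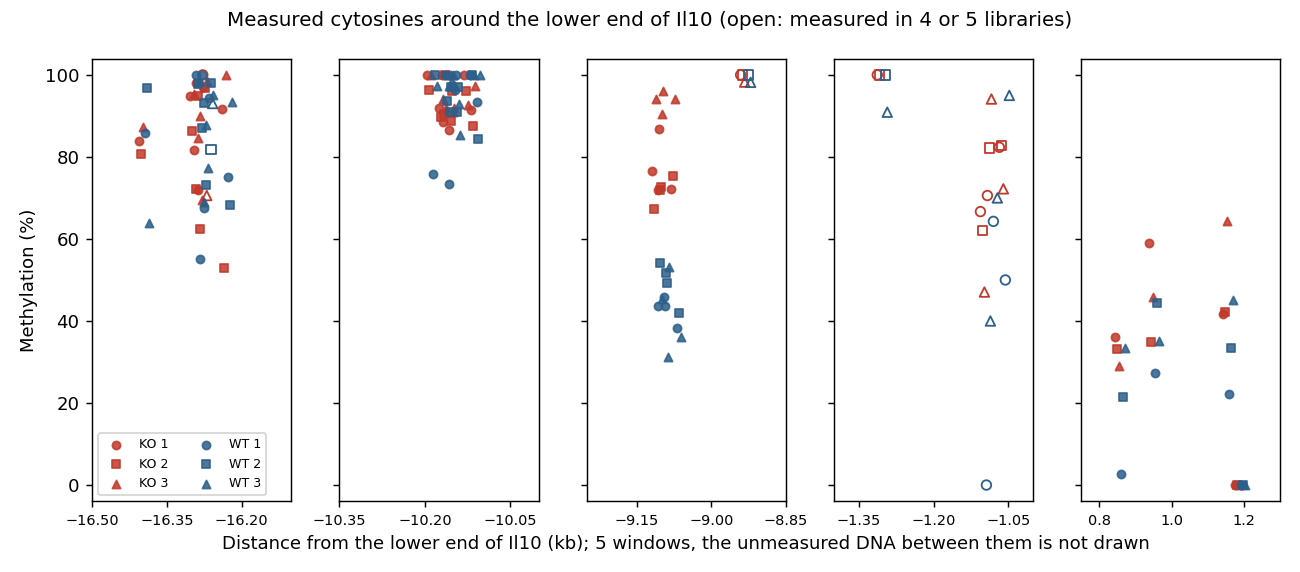
Methylation (%) of each measured cytosine in each library, in 5 windows around the lower end of Il10, against distance from that end in kb; points of 1 cytosine are set side by side, KO left of WT, and open symbols mark cytosines measured in 4 or 5 libraries. KO and WT libraries separate in the window at 9.1 kb, overlap near full methylation at 10.2 kb and overlap at intermediate levels inside the gene.

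The cytokine genes Il19 and Il20 gave little data, at high methylation, and Il24 gave none. Il20 (gene 58181, 130906985 to 130911296) had 3 cytosines from 130910718 to 130910885, 0.411 kb inside its upper end, with 88.9%, 87.9% and 84.2% in KO and 94.9%, 89.3% and 88.0% in WT. Il19 (gene 329244, 130932656 to 130945457) had 3 cytosines from 130942031 to 130942149, with 83.3%, 86.5% and 80.9% in KO and 83.9%, 84.5% and 83.3% in WT. In both genes the libraries of the genotypes overlapped. A single cytosine of Il19, at 130942149, was lower in each KO library, with 80.0%, 82.7% and 78.2% in KO and 90.5%, 89.1% and 92.6% in WT. The DNA between these genes was also highly methylated: the 4 cytosines from 130920083 to 130920265 had 95.9%, 97.8% and 98.2% in KO, against 94.1%, 94.1% and 94.0% in WT.

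Another stretch of intermediate methylation lay 1.52 kb beyond the upper end of Il19. Its 6 cytosines, from 130946978 to 130947231, had 59.3%, 52.1% and 48.7% in KO and 59.1%, 44.5% and 45.8% in WT, which overlapped. They ranged widely among themselves. The outermost cytosine, 130946978, had 100% in each KO library and 90.9%, 81.8% and 80.0% in WT, on 11 to 46 reads, and 130947231 at the other end had 20.3%, 19.0% and 15.5% in KO and 6.25%, 9.68% and 13.2% in WT. At the CpG read on both strands at 130947120 and 130947121 the genotypes overlapped on each strand.

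Mapkapk2 (gene 17164, 131053700 to 131097871), the best covered gene of the cluster, had an unmethylated promoter and a methylated interior in both genotypes. In the 85 cytosines from 131096722 to 131098020, across its upper end, where the RefSeq promoter lies, pooled methylation was 0.266%, 0.190% and 0.159% in KO and 0.0837%, 0.0875% and 0.268% in WT. The highest value of any cytosine there in any library was 4.44%. The 5 measured cytosines of the Mapkapk2 promoter sequence shown above had no read with C in any library, on 29 to 104 reads per cytosine, which allows levels up to 10.3% at the lowest coverage. The 40 cytosines of the interior averaged 69.6%, 69.1% and 68.2% in KO and 70.2%, 68.6% and 69.3% in WT when each cytosine was weighted equally, and the genotypes overlapped. These 40 include the cytosines from 131096722 up to 1 kb before the upper end, which belong to the unmethylated stretch, so the mean mixes high and low levels. Weighted by reads the interior stood at 54.5%, 53.2% and 49.5% in KO and at 41.7%, 48.8% and 51.9% in WT, and overlapped as well.

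Single stretches of Mapkapk2 and of the DNA before it differed by a few points in either direction. Between Il10 and Mapkapk2, the 6 cytosines from 131046746 to 131046937 had 79.0%, 74.1% and 79.2% in KO and 68.8%, 71.4% and 71.8% in WT, and the 4 cytosines from 131043950 to 131044021 had 94.5%, 99.5% and 99.2% in KO and 95.9%, 90.7% and 93.8% in WT. All KO libraries were above all WT libraries in the first of these stretches and the genotypes overlapped in the second. The tile from 131043001 to 131044000, which leaves out the last cytosine of the second stretch, did not overlap. Its 3 cytosines had 96.9%, 99.3% and 99.0% in KO and 94.2%, 88.6% and 92.4% in WT (adjusted p = 0.346, quasi-binomial test). Inside Mapkapk2, the 3 cytosines from 131061048 to 131061204 had 86.8%, 87.9% and 85.5% in KO and 90.6%, 88.0% and 93.6% in WT, the 1 stretch of the cluster with every KO library below every WT library. A cytosine of the gene at 131088814 also stood lower in KO, with 76.6%, 92.1% and 85.4% in KO and 96.3%, 94.9% and 97.1% in WT.

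A CpG of Mapkapk2 differed between its strands rather than between genotypes. Of the 48 CpGs of the cluster read on both strands, 46 differed by 5 points or less between strands, and the median difference was 0.356 points. At 131056439 the plus strand had 100%, 100% and 100% in KO and 100%, 85.7% and 100% in WT, whereas the minus strand at 131056440 had 18.8%, 6.06% and 25.3% in KO and 33.3%, 20.9% and 18.4% in WT. Both genotypes showed the same asymmetry, on 12 to 75 reads. In the same stretch, the plus strand at 131056487 had 0%, 6.25% and 0% in KO and 7.69%, 3.45% and 7.41% in WT, while the minus strand of that CpG, at 131056488, had 100% in each of the 5 libraries that measured it.

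Fcmr (gene 69169, 130865777 to 130880790) carried a lowly methylated stretch inside the gene. Its 39 cytosines, from 130877994 to 130878563 and 2.23 kb inside the upper end, had 3.96%, 4.94% and 4.84% in KO and 4.73%, 3.73% and 5.85% in WT. The genotypes overlapped, and the means were 4.58% ± 0.541 in KO and 4.77% ± 1.06 in WT (n = 3 each). The first cytosine of the stretch, 130877994, was the most methylated, with 33.3%, 49.2% and 29.6% in KO and 32.3%, 50% and 48.2% in WT. At 130878261 no KO library had a read with C on 14 to 31 reads, which allows up to 21.4% in KO 2, while WT 1, WT 2 and WT 3 had 14.8%, 19.4% and 0%. The 4 cytosines between Fcmr and Pigr, the gene of the receptor that carries IgA and IgM across epithelia, had 97.8%, 97.9% and 95.3% in KO and 90.5%, 90.6% and 92.4% in WT (130854420 to 130854534), so that the KO libraries were each higher than any WT library.

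**Figure D4:**
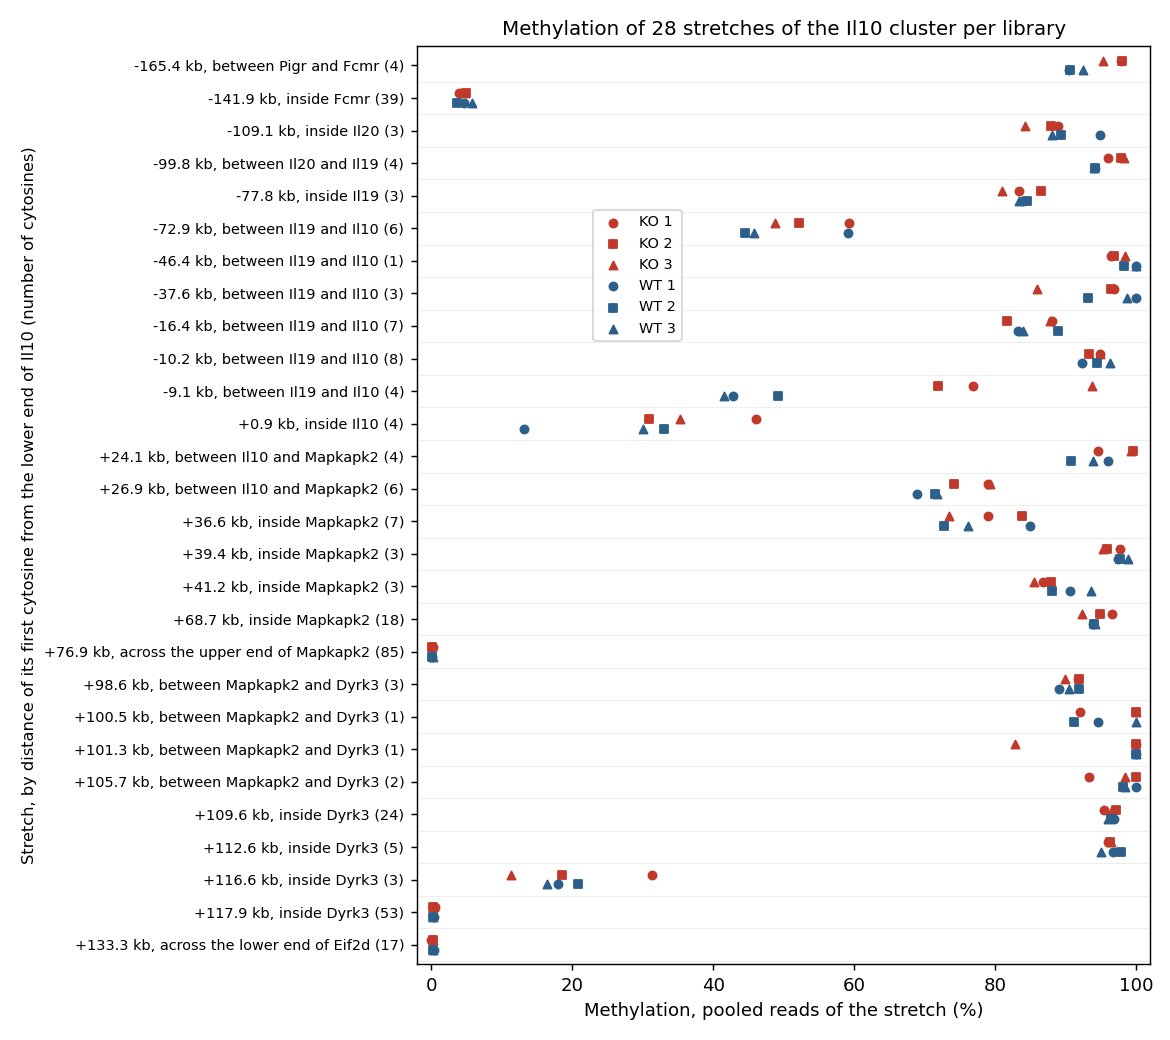
Methylation (%) of the pooled reads of each of the 28 stretches of the cluster in each library, KO above WT within a row, with the distance of the first cytosine from the lower end of Il10 and the number of cytosines. The stretch 9.1 kb below Il10 is the row where the genotypes are farthest apart; the rows at the ends of Mapkapk2, Dyrk3 and Eif2d lie near 0% and most others above 80% in both genotypes.

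Read against the whole genome, the cluster had 1 called tile, the one that led to its choice. A tile was called at an adjusted p under 0.05 (quasi-binomial test, Benjamini-Hochberg over all tiles) and a difference of at least 10 points. This held for 122 of 108943 tiles, 0.112%, all of them higher in KO, and for 1 of the 26 tiles of the cluster. As the region was selected on that tile, the count for the cluster carries no test. The count over the genome was 0 in edgeR, in limma with each cytosine weighted equally, without moderation and with either other prior. Of the other 25 tiles 0 were called, 13 were higher and 12 lower in KO, their differences ranged from -4.67 to 7.61 points with a median of 0.00330, and the median over all tiles was 0.174. At an unadjusted p under 0.05, 3 of the 26 tiles were higher in KO and 0 lower in this test (5.73% and 1.46% of tiles in the genome), 1 of the 3 being the tile that the region was selected on, and 4 passed in edgeR, which called 0. In 5 of the 25 tiles all KO libraries were above all WT libraries (8.34% of tiles in the genome) and in 1 they were below (3.36%).

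Of the 321 single cytosines 0 were called, against 5 of 1457048 in the genome (0.000343%), and edgeR called 0 as well. At an unadjusted p under 0.05, 19 were higher and 10 lower in KO in the quasi-binomial test (3.99% and 2.38% in the genome), and 15 passed in edgeR. In 17 of them all KO libraries were above all WT libraries (2.97% in the genome), 4 of these being the upstream cytosines, and in 7 they were below (2.25%). Gene-end windows of 1 kb on each side could be tested for the upper ends of Il20 and Mapkapk2 and gene interiors for Fcmr and Mapkapk2. None of these 4 was called or reached an unadjusted p under 0.05 in the quasi-binomial test, in edgeR or in limma, with 0.00568% of windows and 0% of interiors called in the genome. At an unadjusted p under 0.05 in the quasi-binomial test, 871 of 17613 windows in the genome were higher and 154 lower in KO. For interiors these counts were 1708 and 56 of 11311.

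The mean over the cluster shows how much of its difference came from the upstream stretch. With each cytosine weighted equally, the KO libraries averaged 35.0%, 34.6% and 34.8% and the WT libraries 34.1%, 33.8% and 33.9%, a difference of 0.832 points between 34.8% ± 0.207 in KO and 33.9% ± 0.125 in WT. Without the 4 upstream cytosines the difference was 0.385 points, beside 0.344 points over all cytosines of the genome. From library means weighted by reads it was 6.29 points, beside 5.94 points without the 4 upstream cytosines and 4.91 points over all cytosines of the genome. The share of the cluster's reads on cytosines below 10% was 63.2%, 62.7% and 67.1% in KO and 73.7%, 69.9% and 69.9% in WT, and 62.4 to 65.6% in KO and 66.9 to 71.4% in WT over the genome. The part of this share in the read-weighted difference was not tested.

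At intermediate levels, the mean over the cluster's cytosines other than the 4 upstream ones overlapped between the genotypes. All 13 cytosines at 30 to 70% averaged 59.7%, 52.8% and 60.4% in KO and 41.0%, 46.1% and 42.4% in WT. Without the 4 upstream cytosines the 9 others had 52.0%, 44.3% and 45.5% in KO and 40.2%, 44.7% and 42.8% in WT, which overlapped, a difference of 4.73 points. Among the 9, the cytosine at 131046937 did not overlap, with 83.3%, 67.3% and 79.2% in KO and 57.5%, 62.5% and 62.5% in WT. Over the 53415 cytosines of this class in the genome the difference was 2.72 points, between 52.6% ± 0.673 in KO and 49.9% ± 1.65 in WT. Tiles of this class were called in 0.782% of cases (71 of 9076), with a median difference of 1.48 points.

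Genes that act with those of the cluster showed no called tile. The lists held 52 genes of the IL-10 family, its receptors and signalling, transcription factors known to act on Il10, the p38 and MAPKAPK2 pathway, immunoglobulin receptors and surface molecules of regulatory B cells, 49 of them with a tested tile in the gene or within 10 kb. Of their 309 tiles 0 were called in the quasi-binomial test, in edgeR or in limma (0.112% in the genome), 201 were higher and 108 lower in KO, and the median difference was 0.167 points, against 0.174 over all tiles. The tile of Pigr between 130854001 and 130855000 is also 1 of the 26 tiles of the cluster. At an unadjusted p under 0.05, 24 were higher and 3 lower in KO, beside 5.73% and 1.46% of all tiles in the genome. Tiles higher and lower in KO numbered 8 and 7 for the receptors, 34 and 14 for signalling, 77 and 45 for the transcription factors and 60 and 30 for the p38 and MAPKAPK2 pathway. They numbered 2 and 2 for the other IL-10 family cytokines, 4 and 1 for the immunoglobulin receptors and 16 and 9 for the surface molecules. These lists were drawn up with earlier results of these data known.

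In each list the gene with the smallest p is named, with the adjusted p of the quasi-binomial test. Il10ra, the ligand-binding chain of the IL-10 receptor, had 45.8% ± 0.807 in KO and 39.1% ± 4.02 in WT at a tile on chromosome 9 (45266001 to 45267000; adjusted p = 0.667). Socs3, a feedback inhibitor of STAT3 signalling, had 14.1% ± 1.44 in KO and 8.38% ± 1.36 in WT (chromosome 11, 117959001 to 117960000; adjusted p = 0.381). Rela, the p65 subunit of NF-kB, had 97.1% ± 0.524 in KO and 92.5% ± 1.34 in WT (chromosome 19, 5656001 to 5657000; adjusted p = 0.324). In these 3 tiles all KO libraries were above all WT libraries (8.34% of all tiles in the genome), and none passed the test. The tiles were picked by the smallest p, which favours such an order. In Mapk14, the p38 alpha kinase upstream of MAPKAPK2, the tile stood at 0.995% ± 0.127 in KO and at 0.414% ± 0.0660 in WT, and its adjusted p was 0.489. Cd5, a surface molecule of B-1 and regulatory B cells, had 53.9% ± 2.84 in KO and 45.4% ± 2.09 in WT (adjusted p = 0.459). Ifnl3, an interferon lambda gene, had 12.7% ± 2.61 in KO and 9.03% ± 3.19 in WT (adjusted p = 0.725). The KO libraries were also all above the WT libraries in the tiles of Mapk14 and Cd5, whereas the genotypes overlapped in that of Ifnl3. For the list of immunoglobulin receptors the gene was Pigr, whose tile is the stretch between Pigr and Fcmr described above.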

How the data were processed

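Genomic DNA of splenic naive B cells was profiled by ERRBS in 3 Tet2 KO and 3 WT libraries. Bismark and GRCm38 are named in the submitters' processing notes, without a version. Per the file headers, each table gives the coverage of every CpG cytosine and strand, deposited as a read count without normalization and never under 10. It also gives methylation, deposited as the percent of those reads carrying C or T. C and T counts were recovered as percent times coverage and came out whole for 100% of values, within the rounding of the percent.

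Coverage summed over all cytosines was 168455105 to 207065050 per library, where a read counts at each cytosine it covers. KO was set against WT in a quasi-binomial model of the C and T counts, with 1 level per genotype. The overdispersion was moderated with limma 3.58.1 (R 4.3.3), with a prior from features where it was above 0, and kept from falling below 1. F tests with Benjamini-Hochberg adjustment were run over all features of a kind, namely cytosines, tiles of 1 kb and gene-end windows with at least 3 cytosines, and interiors with at least 5. edgeR 4.0.16 was an alternative. Gene spans, without strand, and promoter sequences came from RefSeq (GRCm38.p6), and 12 of 12 measured cytosines of the Mapkapk2 promoter fell on a CpG of its sequence. Limits for 0 reads are 3 reads of the coverage.

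The members, lists and tests were chosen with earlier results of these data known. Genes were named by rule: the 6 members, the other genes of the region, the marker genes, and per list the gene with the smallest p; other single cytosines were chosen after their values were seen. Of the 422 cytosines measured in any library of the cluster, those covered in fewer than 6 libraries entered no test.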

Additional observations from a re-analysis of the deposited data

How the results depend on the processing

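The difference of the tile upstream of Il10, 34.1 points, was 30.6 to 37.2 points when 1 library was left out. As a difference of library means it was 36.3 points, with reads pooled or each cytosine weighted equally within a library. No block model was fitted for the size of this difference. Its direction was fixed by the choice of the region, since the libraries of the genotypes do not overlap there, and is no sign of stability. The cluster held 1 called tile, with a range of 0 to 1 when 1 library was left out (0 without KO 1, WT 1 or WT 3), and 0 with the replicate block, without moderation of the overdispersion, with each cytosine weighted equally in limma, in edgeR, and with 2 priors chosen after seeing the data, from all tiles or from tiles at 10 to 90% methylation. The count was 1 with a coverage minimum of 20, with the cytosines of most extreme coverage left out and with tiles shifted by 500 bases. Over the genome the 122 called tiles became 143 with a coverage minimum of 20, 52 to 122 without 1 library, and 0 under the block, without moderation, with either prior, in limma and in edgeR; the cause was not tested. The mean difference of the cluster, 0.832 points, was 0.746 to 0.947 without 1 library, 6.21 with the reads of each genotype pooled and 0.385 without the upstream tile, an alternative added after seeing the data. Replicate numbers did not pair the libraries: deviations of same-numbered libraries correlated at 0.0481, -0.0293 and -0.00736. Within the cluster, counts of called cytosines, windows and interiors stayed at 0 in every alternative run. The count of called tiles of the listed genes outside it also stayed at 0. A value from minus-strand cytosines could not be had, as the upstream tile holds none measured in all libraries, and the cluster mean does not depend on where tiles start. A coverage of 51 to 136 reads at the upstream cytosines and of 12 to 40 at the sparsest cytosines inside Il10 limits what single cytosines can show.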

Other observations

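The region also held genes outside the cluster: part of Pigr and of Eif2d, the kinase gene Dyrk3, the lncRNA genes Gm41952 and Gm51643 and the pseudogene Gm25549. The 53 cytosines at the upper end of Dyrk3 (131137715 to 131138197) had 0.502%, 0.304% and 0.339% in KO and 0.444%, 0.321% and 0.287% in WT. The 17 cytosines at the lower end of Eif2d, a translation initiation factor gene, averaged 0.157% ± 0.139 in KO and 0.269% ± 0.0729 in WT (SD, n = 3 each). Inside Dyrk3, 3 cytosines from 131136398 to 131136491 varied more between KO than between WT libraries, with 31.3%, 18.6% and 11.3% in KO and 18.0%, 20.9% and 16.4% in WT.

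Of the cytosines of the region not measured in all libraries, 37 were measured in 5 libraries and 43 in 1. Among the 37, KO 2 was the library missing at 22, KO 3 at 6, WT 1 at 6 and WT 2 at 3. No cytosine was measured in all KO and no WT library, or in all WT and no KO library.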
